A study of Mus musculus with 2 samples.

Results

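The MHC class I antigen presentation and immunoproteasome genes were followed across the tumour leukocytes of mice with intrahepatic cholangiocarcinoma (iCCA), which arises in the liver and forms bile-duct-like glands. The 10 members were taken by their symbols from the 31253 genes of the deposited tables: the class I heavy chains H2-K1 and H2-D1, the light chain B2m, the peptide transport and loading genes Tap1, Tap2 and Tapbp, the inducible proteasome subunits Psmb8, Psmb9 and Psmb10, and the transcriptional activator Nlrc5. All 10 were present in both tables.

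Tumours were induced in C57BL/6 mice by hydrodynamic injection of transposon vectors that express Myr-AKT, a membrane-anchored and constantly active AKT, and YAPS127A, a YAP that escapes inhibitory phosphorylation. From day 7 one group received NAV2729, an inhibitor of the small GTPase ARF6, at 30 mg/kg every other day for 7 days (the NAV library), and the other group received none (the MOCK library). CD45+ leukocytes were sorted and captured on the BD Rhapsody platform, which counts the mRNA molecules of single cells by unique molecular identifiers (UMIs). Cells of several tumours were pooled into 1 library per group, the labels giving 6 tumours per group in one place and 3 paired tumours in another, so that no spread between animals could be measured and differences between MOCK and NAV carry no test. Both groups carried both vectors, and the CD45 sort selects leukocytes.

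MHC class I molecules display peptides from inside the cell to CD8 T cells, and their absence is read by NK cells. Peptides are cut by the proteasome, whose constitutive catalytic subunits Psmb5, Psmb6 and Psmb7 are replaced by Psmb8, Psmb9 and Psmb10 in the immunoproteasome. The transporter of Tap1 and Tap2 then moves the peptides into the endoplasmic reticulum, where Tapbp (tapasin) helps to load them onto a heavy chain paired with B2m. Interferon gamma raises these genes, in part through Irf1, and Nlrc5 activates the class I promoters.

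Promoter sequences are shown for letters known from promoters that answer to NF-kappa B and interferon. RefSeq entries of the GRCm38.p6 assembly covered 8 of the 10 members, Tap2 and Nlrc5 having none, and each was searched on both strands from 250 bases before to 50 after the transcript start. Stretches of 4 members are printed in the direction of transcription, and capitals mark the matches: GGGGATTCC, the kappa B site of the class I enhancer, and TTTCACTTC, the reverse strand of the IRF letters GAAGTGAAA, in H2-K1 and H2-D1, the interferon-type IRF motif GAAANNGAA in B2m, and the gamma-activated motif TTCNNNGAA in Psmb8.
H2-K1: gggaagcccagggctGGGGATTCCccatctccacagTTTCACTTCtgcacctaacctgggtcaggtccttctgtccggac
H2-D1: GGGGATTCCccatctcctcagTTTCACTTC
B2m: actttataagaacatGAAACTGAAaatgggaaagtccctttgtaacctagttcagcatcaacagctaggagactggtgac
Psmb8: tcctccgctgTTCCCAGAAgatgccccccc
The H2-K1 stretch lies at chr17:34000394-34000473 on the minus strand and the H2-D1 stretch at chr17:35262923-35262952 on the plus strand. The B2m stretch lies at chr2:122147533-122147612 and the Psmb8 stretch at chr17:34198088-34198117, both on the plus strand. From the kappa B site to the IRF letters, H2-K1 and H2-D1 hold the same base at 29 of 30 positions.

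Among the 27025 promoters of the table, 0.259% held GGGGATTCC, 0.522% GAAGTGAAA, 8.574% GAAANNGAA, 8.466% TTCNNNGAA and 37.92% the CCAAT box. The kappa B and IRF letters were found in H2-K1 and H2-D1 and in none of the other 6 members searched. The GAAGTGAAA letters were set after these promoters were seen, so their match there cannot be read against the share over all promoters. The starts of Psmb9 and Tap1, which are transcribed away from each other, are 225 bases apart. Of the letters searched, these promoters held only a CCAAT box, which is the same stretch of bases read from both sides. A match is a match of letters, since binding was not measured.

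All but 3 of the members lie on chromosome 17 (GRCm38): H2-K1 at chr17:33996017-34000347, H2-D1 at chr17:35262730-35267499, Tapbp at chr17:33915899-33929292, and a compact block of Psmb9 at chr17:34181987-34187764, Tap1 at chr17:34187553-34197225, Psmb8 at chr17:34197721-34201454 and Tap2 at chr17:34203527-34216321. B2m lies at chr2:122147686-122153083, Psmb10 at chr8:105935735-105938444 and Nlrc5 at chr8:94434356-94527272. Tap1 and Psmb9 overlap on opposite strands, Tapbp overlaps Zbtb22 and Nlrc5 overlaps Mir7072 on the same strand. Whether the counting used strand is not given in the sources used here, so reads from such overlaps cannot be told apart. Of the 451 windows of 50 bases at the 3′ end, H2-K1 shared 2 and H2-D1 43 with other genes, and the other members none.

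The MOCK library held 10863 barcodes with 45976676 UMIs and the NAV library 10465 with 31454031. After filters 10218 and 9913 cells were analysed, with medians of 3728 and 2023 UMIs per cell. Within a class the depths were closer, such as 5198 and 4717 UMIs in macrophage-like cells and 1286 and 1168 in neutrophil-like cells. The libraries shared 5 barcodes, 4 of them among analysed cells. Clusters were formed without the members and without the related genes below, and 11 classes with at least 100 cells in each library were read: neutrophil-like (2033 MOCK and 3271 NAV cells), macrophage-like (2158 and 944), classical monocyte-like (1228 and 1026), B-like (1022 and 1170), Kupffer-like (1007 and 259), cDC2-like (332 and 458), nonclassical monocyte-like (188 and 431), cDC1-like (120 and 214), CD8 T-like (114 and 212), gd T/T17-like (139 and 118) and NK-like (100 and 221). The names rest on markers, and 1565 and 1147 cells stayed unnamed. Most MOCK macrophage-like cells were in a cluster led by Gpnmb and Fcrls (1327) and most NAV ones in a cluster led by H2-Eb1 and H2-Ab1 (620), while most MOCK neutrophil-like cells were in a cluster led by Retnlg and Ngp (1183) and most NAV ones in a cluster led by Siglecf and Il23a (2660). Classical monocyte-like cells came from 2 clusters, one led by Chil3 and Ms4a8a (619 MOCK and 431 NAV cells) and one led by Vcan and Ly6c2 (609 and 595), so that the latter held the larger part in NAV. CD8 T-like cells came from 7 small clusters, the largest being one led by Cd8a and Gzmb in MOCK (25 cells) and one led by Tcf7 and Lef1 in NAV (47).

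Markers of other cells were summed in each class as counts per 1000000 UMIs (CPM). Over the 11 classes hepatocyte markers reached at most 16.4 and erythroid markers at most 1.45. Endothelial markers lay between 4.84 and 159 in MOCK and between 7.93 and 149 in NAV. Platelet markers lay between 1.27 and 299 in MOCK and between 0 and 212 in NAV, highest in Kupffer-like cells. Cholangiocyte and tumour markers lay between 11 and 779 in MOCK and between 20.1 and 1115 in NAV, highest in macrophage-like cells. An unnamed cluster led by Zfp791 and Lars2 (273 MOCK and 195 NAV cells) is outside the 11 classes but within the values over all analysed cells. It had 1368 and 2388 CPM of cholangiocyte and tumour markers, of which Spp1, also made by phagocytes, was 1021 and 2214. It also had 146 and 751 CPM of hepatocyte and 277 and 996 of endothelial markers, so RNA of cells other than leukocytes is in the all-cell values, and its part in them was not tested.

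Levels are given in CPM of the class, so each value is relative to the other RNA of that class. Ranks of levels cover only the classes with at least 100 cells in each library. Brackets hold exact 95% intervals, which cover counting error only and not the spread between animals. Ratios are log2 NAV/MOCK, above 0 where NAV was higher, and a ratio was read where the gene had 50 or more UMIs in MOCK and NAV together.

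H2-K1 is a heavy chain that presents peptides to CD8 T cells. Among the classes with at least 100 cells in each library, it was highest in lymphocytes that kill or secrete cytokines. In MOCK, NK-like cells had 4990 CPM (4744 to 5246), the gd T/T17-like class 4527 (4311 to 4751) and CD8 T-like cells 4495 (4271 to 4728), and the intervals of these neighbours overlapped. B-like cells followed at 2482 and cDC2-like cells at 2473, also not separable. Macrophage-like, Kupffer-like and cDC1-like cells lay together at 1826, 1798 and 1794. Classical monocyte-like cells had 1178 CPM and neutrophil-like cells 1053. In NAV the same classes stood at both ends, NK-like cells at 5784 and neutrophil-like cells at 1443.

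H2-D1, the other classical heavy chain measured, had a different order and a narrower range. Nonclassical monocyte-like cells were highest in both libraries, with 3397 CPM in MOCK (3269 to 3528) and 4543 in NAV. The lowest class was B-like in MOCK at 1750 and neutrophil-like in NAV at 2098. The highest class exceeded the lowest 1.94-fold in MOCK and 2.17-fold in NAV, against 4.74-fold and 4.01-fold for H2-K1. B2m, the light chain that every class I molecule needs, was highest in NK-like cells in MOCK (3090) and in nonclassical monocyte-like cells in NAV (3717), and lowest in neutrophil-like cells in both (1358 and 1280).

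**Figure D1:**
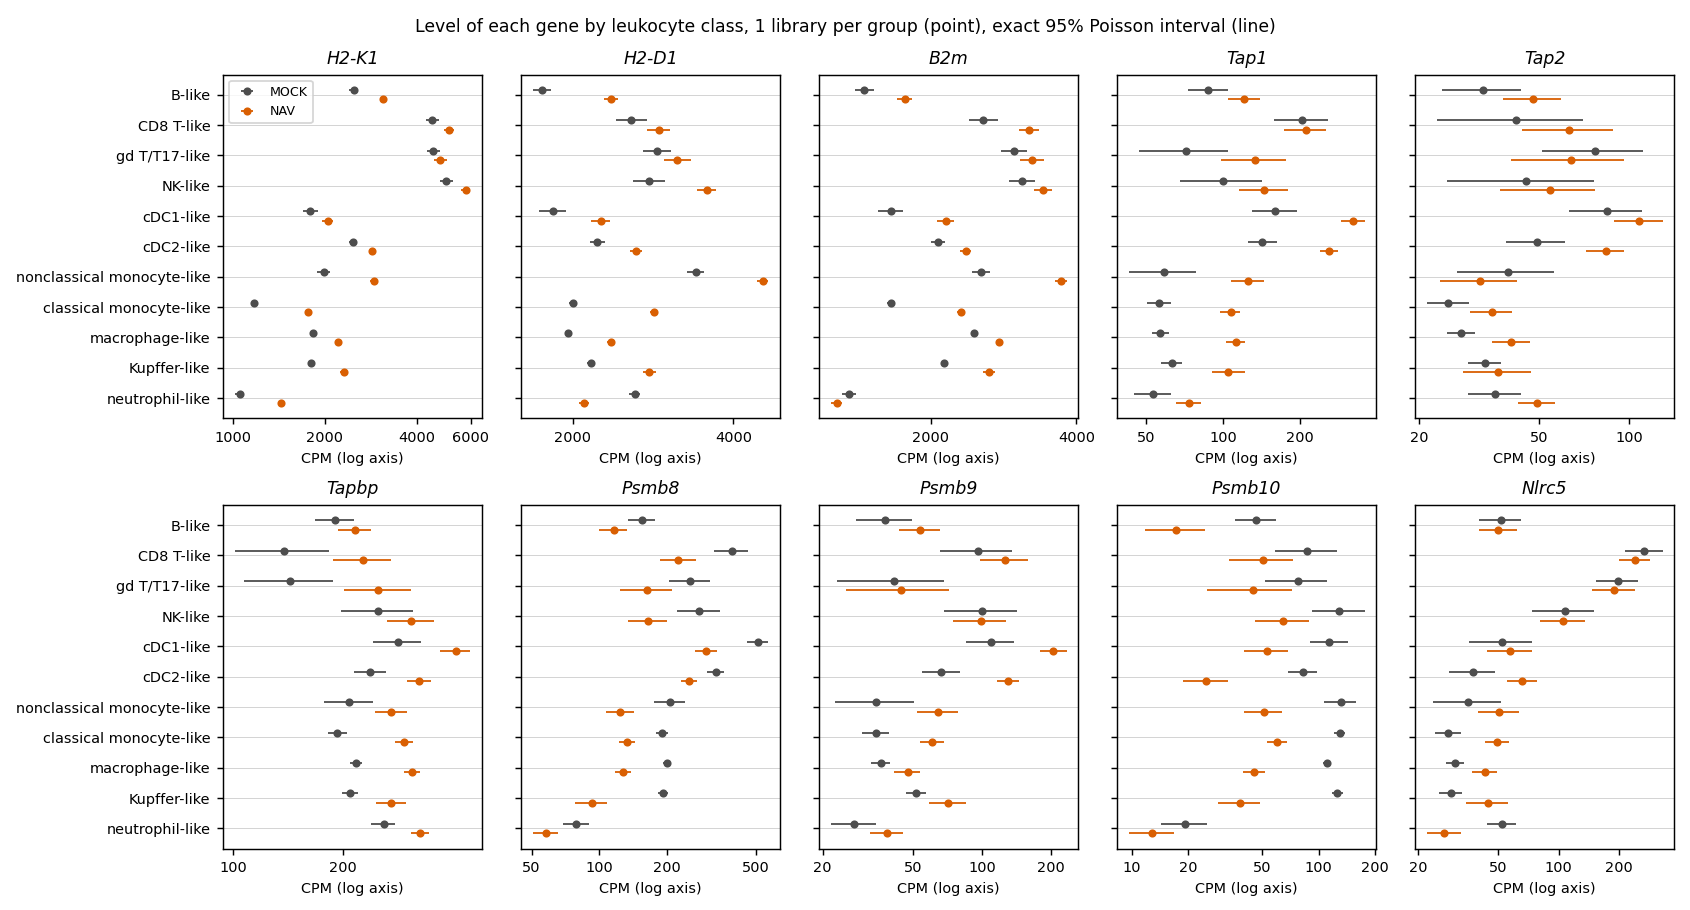
Level of each of the 10 members in 11 leukocyte classes, in CPM on a log axis, with 1 point per library (MOCK and NAV) and lines for the exact 95% counting interval. H2-K1 and Nlrc5 are highest in NK-like and CD8 T-like cells respectively, Psmb8, Psmb9 and Tapbp in cDC1-like cells, and neutrophil-like cells are the lowest class for 8 of the members in at least 1 library.

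Between the libraries, H2-K1 was higher in NAV in all 11 classes, and the interval held 0 only in gd T/T17-like cells (0.08, -0.02 to 0.17). Classical monocyte-like cells had the largest ratio, going from 1178 CPM (1151 to 1205) to 1761, a ratio of 0.58 (0.53 to 0.63). Nonclassical monocyte-like cells had 1985 and 2904, a ratio of 0.55 (0.46 to 0.63). CD8 T-like cells had 4495 and 5092, a ratio of 0.18 (0.09 to 0.27), and the ratio was 0.19 in cDC1-like cells and 0.21 in both NK-like and cDC2-like cells. Between these values lay Kupffer-like cells at 0.36, B-like cells at 0.32 and macrophage-like cells at 0.28.

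H2-D1 was higher in NAV in 10 of 11 classes and lower in neutrophil-like cells. Classical monocyte-like cells had 2001 CPM in MOCK and 2843 in NAV, a ratio of 0.51 (0.47 to 0.54). B-like cells, the lowest MOCK class, had 1750 and 2357, a ratio of 0.43 (0.36 to 0.50). B2m followed the same division, with 2543 and 3717 in nonclassical monocyte-like cells (0.55, 0.47 to 0.62), 1659 and 2314 in classical monocyte-like cells (0.48, 0.44 to 0.52), and 1358 and 1280 in neutrophil-like cells (-0.09, -0.15 to -0.02). The ratios of H2-K1 and B2m were thus largest in the 2 monocyte classes, and that of H2-D1 in classical monocyte-like cells. B2m in macrophage-like cells, at 0.17, had -0.07 when the libraries were clustered separately.

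Part of these higher levels was common to the classes of the NAV library. Subtracting for each gene its median ratio over the other large classes left H2-K1 at 0.26 in classical monocyte-like and 0.21 in nonclassical monocyte-like cells. It turned H2-K1 below 0 in B-like (-0.04), macrophage-like (-0.09), NK-like (-0.13), cDC1-like (-0.15), cDC2-like (-0.15), CD8 T-like (-0.16) and gd T/T17-like cells (-0.27). H2-D1 likewise turned in cDC1-like (-0.02), macrophage-like (-0.10), cDC2-like (-0.12), CD8 T-like (-0.14) and gd T/T17-like cells (-0.19), and B2m in cDC2-like (-0.08), NK-like (-0.09), macrophage-like (-0.10) and gd T/T17-like cells (-0.11). A difference shared by the classes of 1 library cannot be told apart from a difference of that library.

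Endothelial markers moved with the nonclassical monocyte-like results, summing to 7.65 CPM in MOCK and 106 in NAV. Nearly all of this was Pecam1 (7.65 and 103), which leukocytes also make. Kdr, Stab2 and Ptprb had UMIs in NAV only, while Clec4g, Tek, Egfl7 and Oit3 were at 0 in both libraries. In cDC2-like cells the sums were 19 and 50.1. The part of these markers in the results of the 2 classes was not tested.

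The neutrophil-like values turned on which neutrophil cluster supplied the cells. H2-D1 had 2612 CPM in MOCK and 2098 in NAV over the whole class, a ratio of -0.32 (-0.36 to -0.27). Within the Retnlg and Ngp cluster it had 3288 and 3967 (0.27, 0.21 to 0.33), and within the Siglecf and Il23a cluster 1436 and 1584 (0.14, 0.06 to 0.23). H2-D1 was thus higher in NAV within each cluster and lower in the class as a whole, whose NAV cells came mostly from the cluster with the lower level. H2-K1 ran the other way between the clusters, at 847 and 1207 CPM in the first (0.51, 0.40 to 0.63) and 1411 and 1508 in the second (0.10, 0.01 to 0.18). B2m was higher in the first cluster (0.27) and lower in the second (-0.17, -0.26 to -0.08).

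Over the class as a whole, neutrophil-like cells had a shift across all genes, whose median ratio was 0.34. The medians of the other classes lay between -0.04 and 0.05. The shift was smaller within each neutrophil cluster, with all-gene medians of 0.05 for Retnlg and Ngp and 0.10 for Siglecf and Il23a. Scaled by the median of ratios, which removes this shift, H2-K1 had a ratio of 0.11 in neutrophil-like cells, H2-D1 -0.66, B2m -0.43, Tap1 0.12, Tap2 0.11, Tapbp -0.01, Psmb8 -0.79, Psmb9 0.13, Psmb10 -0.91 and Nlrc5 -1.29. Tapbp, at 0.33 without the scaling, changed sign with it.

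**Figure D2:**
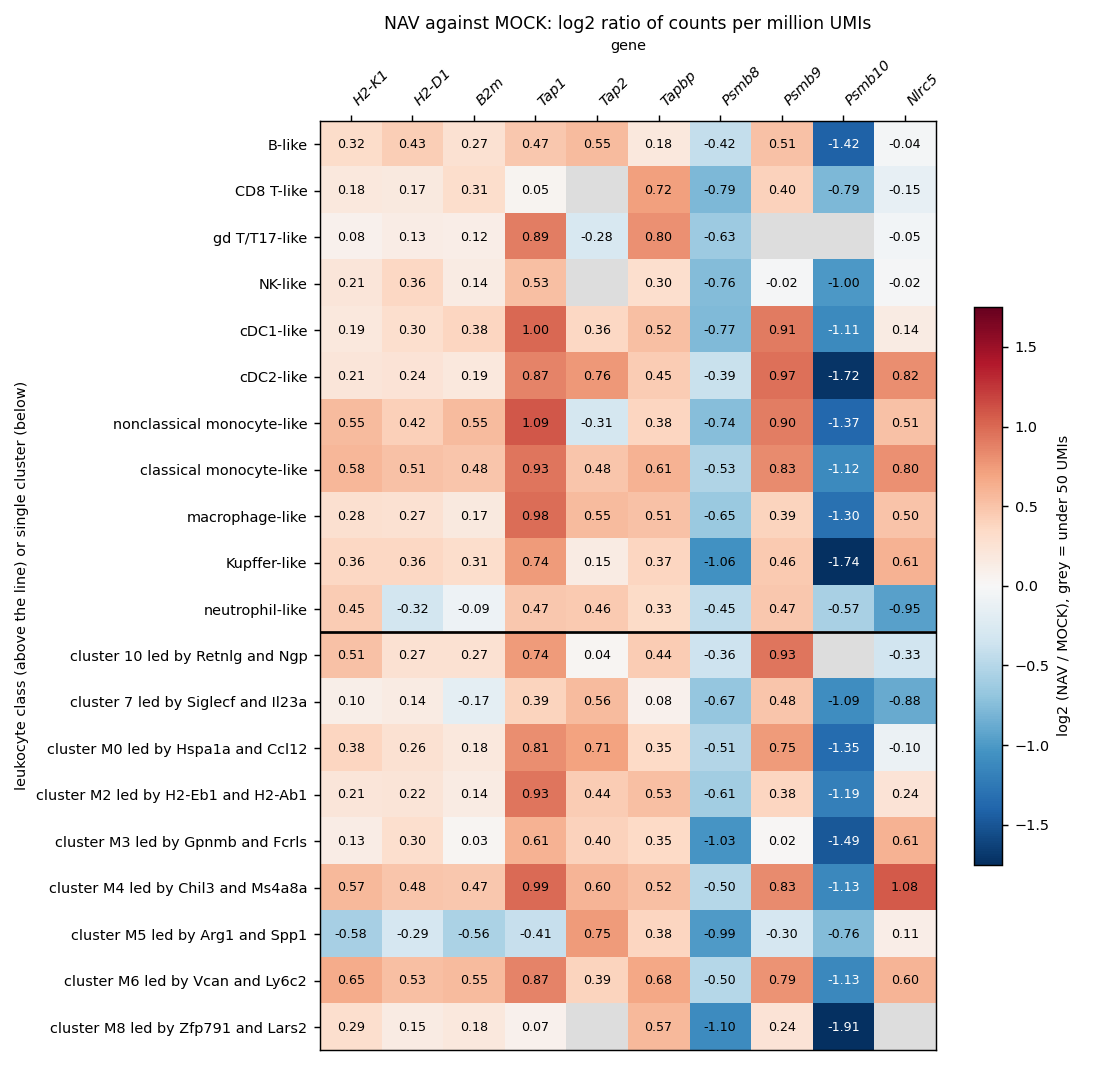
Log2 NAV/MOCK ratio (colour and printed value) of the 10 members (columns) in the 11 leukocyte classes above the line and in single clusters below it, with grey cells where fewer than 50 UMIs were counted. Across the 11 classes Tap1 lies above 0 (0.05 to 1.09), Psmb8 (-1.06 to -0.39) and Psmb10 (-1.74 to -0.57) lie below 0 wherever measured, and in the Arg1 and Spp1 cluster H2-K1 (-0.58) and B2m (-0.56) lie below 0.

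Tap1, the subunit of the peptide transporter whose gene abuts Psmb9, was highest in MOCK in CD8 T-like cells at 203 CPM (158 to 258), cDC1-like cells at 160 (130 to 195) and cDC2-like cells at 142 (125 to 162), with overlapping intervals. The remaining classes lay between 53.2 and 100. In NAV, cDC1-like cells stood alone at the top of the 11 classes with 321. It was higher in NAV in all 11 classes, and the interval held 0 in CD8 T-like (0.05) and NK-like cells (0.53).

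The Tap1 differences were the largest upward ones of any member in most myeloid classes. Nonclassical monocyte-like cells had 58.6 CPM (42.9 to 78.2) in MOCK and 125 in NAV, a ratio of 1.09 (0.62 to 1.59). In cDC1-like cells, which cross-present antigen to CD8 T cells, the values were 160 and 321, a ratio of 1.0 (0.68 to 1.34). Macrophage-like cells had 56.9 and 112, a ratio of 0.98 (0.81 to 1.15), and within their clusters the ratio was 0.93 (0.71 to 1.14) in the H2-Eb1 and H2-Ab1 cluster and 0.61 (0.30 to 0.91) in the Gpnmb and Fcrls cluster. The class value therefore lay above those of both its clusters, which contributed unequally to the libraries. Classical monocyte-like cells had 0.93, cDC2-like cells 0.87, Kupffer-like cells 0.74 and B-like cells 0.47, and neutrophil-like cells 0.47.

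Tap2, the partner subunit, was sparse, and CD8 T-like and NK-like cells held fewer than 50 UMIs. It was higher in NAV in 7 of 9 classes measured, among them cDC2-like cells with 49.1 and 83.3 CPM (0.76, 0.38 to 1.16), macrophage-like cells with 27.6 and 40.5 (0.55, 0.29 to 0.81) and B-like cells with 32.6 and 47.9 (0.55, 0.01 to 1.11). The interval held 0 in Kupffer-like (0.15), cDC1-like (0.36), gd T/T17-like (-0.28) and nonclassical monocyte-like cells (-0.31). At this depth the direction in those 4 classes was not resolved.

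Tapbp, which bridges the transporter and the empty class I molecule, was highest in cDC1-like cells, with 282 CPM in MOCK (242 to 327) and 406 in NAV. It was higher in NAV in all 11 classes, with an interval that held 0 in B-like (0.18) and NK-like cells (0.30). Classical monocyte-like cells had 193 and 294, a ratio of 0.61 (0.49 to 0.72). The larger ratios of gd T/T17-like cells (143 and 249, 0.80, 0.29 to 1.32) and CD8 T-like cells (138 and 227, 0.72, 0.22 to 1.24) rested on 52 and 46 MOCK UMIs, and the CD8 T-like direction did not hold when the cells were clustered in other ways (-0.14 at Leiden resolution 2.0 and -0.03 with the libraries clustered separately).

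The 3 inducible proteasome subunits differed in direction. Psmb9 was higher in NAV in 9 of 10 classes measured, while Psmb8 and Psmb10 were lower in every class measured. Psmb8, the chymotrypsin-like subunit also called LMP7, was highest in cDC1-like cells, at 509 CPM in MOCK (455 to 568) and 299 in NAV, a ratio of -0.77 (-1.0 to -0.54). Kupffer-like cells had 193 (183 to 203) and 92.5, a ratio of -1.06 (-1.31 to -0.82). The smallest difference was in cDC2-like cells, 331 and 252 (-0.39, -0.56 to -0.22). The interval lay below 0 in all 11 classes.

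Psmb9, or LMP2, was highest in cDC1-like cells too. It had 109 CPM (85.1 to 138) in MOCK and 206 in NAV there, a ratio of 0.91 (0.51 to 1.32). cDC2-like cells had 66.3 and 130 (0.97, 0.65 to 1.31), nonclassical monocyte-like cells 34.4 and 64.3 (0.90, 0.27 to 1.58) and classical monocyte-like cells 34.2 and 60.6 (0.83, 0.56 to 1.09). The interval held 0 in CD8 T-like (0.40) and NK-like cells (-0.02), and the gd T/T17-like class held fewer than 50 UMIs. Psmb9 and its head-to-head neighbour Tap1 were both higher in NAV in dendritic cells and monocytes.

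Psmb10, or MECL-1, had the largest downward differences of the 10 members. In MOCK the nonclassical monocyte-like, classical monocyte-like, NK-like and Kupffer-like classes had 131, 130, 129 and 126 CPM and could not be ordered, while neutrophil-like cells had 19.2. Kupffer-like cells went from 126 (118 to 135) in MOCK to 37.7 in NAV, a ratio of -1.74 (-2.14 to -1.37). cDC2-like cells had 82.2 and 25 (-1.72, -2.20 to -1.25) and classical monocyte-like cells 130 and 59.7 (-1.12, -1.33 to -0.92). The interval held 0 in CD8 T-like (-0.79) and neutrophil-like cells (-0.57).

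Psmb8 and Psmb10 have GC-rich 3′ ends, and genes of the highest GC decile were lower in NAV in many cases. The last 500 transcript bases of Psmb10 are 58.2% GC, in the highest decile of genes, those of Psmb8 53.6% and in the ninth decile, and those of Psmb9 49.8%, against a median gene at 44.4%. Of all highest-decile genes measured in Kupffer-like cells, 47.0% had a ratio of -0.5 or lower and the median was -0.44, and in classical monocyte-like cells these values were 42.7% and -0.42. In the ninth decile, that of Psmb8, the medians were closer to 0, at -0.09 in both classes with 28% and 23.5% at -0.5 or lower, between -0.09 and -0.02 in the other classes but neutrophil-like, and 0.20 in neutrophil-like cells. Tap2, also in the highest decile at 55.2%, had no ratio at or below -0.5. Measured against the median of its own decile, Psmb10 remained lower in NAV in every class measured, as did Psmb8. The part of GC content in these ratios was not tested.

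Subtracting for each gene its median ratio over the other large classes gave 0.30 for Psmb10 in classical monocyte-like and 0.13 in macrophage-like cells. It gave 0.57 in CD8 T-like, 0.36 in NK-like, 0.25 in cDC1-like and 0.85 in neutrophil-like cells. The lower Psmb10 of NAV was thus shared by the classes of the library and not larger in the classes just named. Psmb8 turned above 0 in B-like (0.10), cDC2-like (0.13) and neutrophil-like cells (0.08).

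Psmb8, Psmb9 and Psmb10 were also read against the constitutive subunits that they replace, as the share of the inducible subunit in the UMIs of each pair. Over all analysed cells the Psmb8 share of Psmb8 and Psmb5 was 76.6% (75.8 to 77.4) in MOCK and 84.9% (83.9 to 85.9) in NAV. The Psmb9 share of Psmb9 and Psmb6 was 30.5% (29.4 to 31.7) and 45.5% (44.0 to 47.0). The Psmb10 share of Psmb10 and Psmb7 was 62.3% (61.1 to 63.4) and 35.0% (33.4 to 36.7). The Psmb8 share was higher in NAV although Psmb8 itself was lower, since Psmb5 lay further below its MOCK level, with ratios from -1.67 to -0.53 in the 8 classes where it was measured. These are shares of UMIs, not of assembled proteasomes. The 3′ ends of Psmb8 and Psmb5 are close in GC content (53.6% and 53.8%), as are those of Psmb9 and Psmb6 (49.8% and 49.0%). Those of Psmb10 and Psmb7 are far apart (58.2% and 37.4%). The part of GC content in the shares was not tested.

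**Figure D3:**
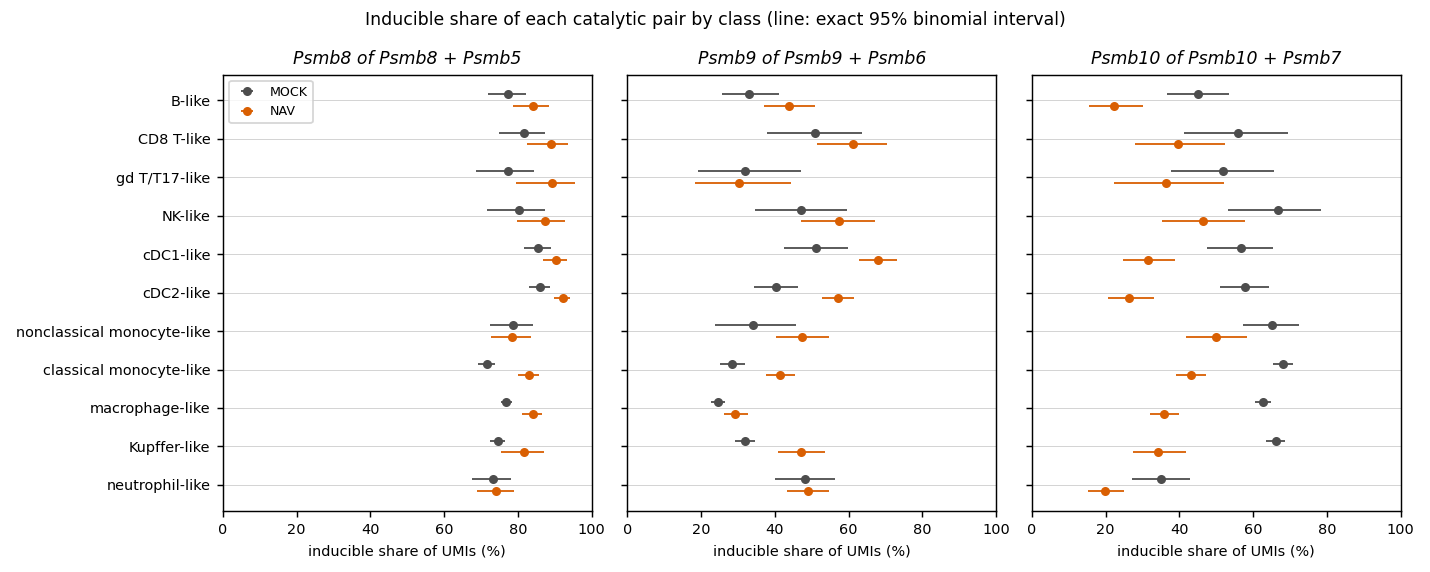
Share (percent) of the inducible subunit in the UMIs of each catalytic pair, Psmb8 with Psmb5, Psmb9 with Psmb6 and Psmb10 with Psmb7, by leukocyte class and library, with exact 95% binomial intervals. The Psmb10 share is lower in NAV in all 11 classes (in Kupffer-like cells 66.1% and 34.3%), and the Psmb9 share of cDC1-like cells is 51.1% in MOCK and 68.1% in NAV. The Psmb10 intervals overlap in CD8 T-like, gd T/T17-like, NK-like and nonclassical monocyte-like cells. The 3′ ends of Psmb10 and Psmb7 are 58.2% and 37.4% GC.

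By class, the Psmb8 share was higher in NAV in 10 of 11, from 71.5% (69.3 to 73.7) to 83.1% (80.1 to 85.8) in classical monocyte-like cells, and was 78.6% and 78.5% in nonclassical monocyte-like cells. The MOCK and NAV intervals of the Psmb8 share were apart only in cDC2-like, classical monocyte-like and macrophage-like cells. The Psmb9 share was higher in NAV in 10 of 11, from 51.1% (42.4 to 59.8) to 68.1% (62.7 to 73.2) in cDC1-like cells and from 31.9% to 47.2% in Kupffer-like cells, and was 31.9% and 30.2% in gd T/T17-like cells. The intervals of the Psmb9 share were apart only in Kupffer-like, cDC1-like, cDC2-like and classical monocyte-like cells. In neutrophil-like cells these shares differed by less than their intervals, 73.2% and 74.2% for Psmb8 and 48.1% and 49.0% for Psmb9. Within the Retnlg and Ngp cluster the Psmb9 share was 61.2% (50 to 71.6) in MOCK and 72.1% (59.9 to 82.3) in NAV. Within the Siglecf and Il23a cluster it was 32.9% (22.3 to 44.9) and 42.7% (36.4 to 49.1). The Psmb8 share was 77% and 84.2% in the former cluster and 68.6% and 72% in the latter. The MOCK and NAV intervals overlapped for both shares in both clusters. The Psmb10 share was lower in NAV in all 11 classes, from 57.8% (51.1 to 64.2) to 26.4% (20.6 to 33.0) in cDC2-like cells. The intervals of the Psmb10 share overlapped in CD8 T-like, gd T/T17-like, NK-like and nonclassical monocyte-like cells. Psmb6 had ratios of -0.63 to 0.42, and Psmb7 was higher in NAV in 10 of 11 classes, at -0.46 in nonclassical monocyte-like cells. The Psmb7 interval lay above 0 only in classical monocyte-like, macrophage-like and neutrophil-like cells and held 0 in the other classes.

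The macrophage-like clusters differed in these shares. The Psmb8 share was 80.3% (78.1 to 82.5) in MOCK and 88.0% (84.9 to 90.6) in NAV in the H2-Eb1 and H2-Ab1 cluster, but 74.5% (72.5 to 76.5) and 73.2% (66.5 to 79.3) in the Gpnmb and Fcrls cluster. The Psmb9 share was 29.6% and 34.5% in the former and 21.7% and 19.5% in the latter. The macrophage-like class as a whole went from 24.6% to 29.3% for Psmb9, with its makeup differing between the libraries.

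Over the classes with at least 100 cells in each library, Nlrc5, the class I transactivator, had the widest range in MOCK. Its highest class was 9.37-fold above the lowest. CD8 T-like cells had 266 CPM (214 to 328), gd T/T17-like cells 196 (153 to 247) and NK-like cells 107 (73.5 to 150), and the next class, cDC1-like, 52.3 (36.0 to 73.5). Classical monocyte-like cells were lowest at 28.4. In NAV the order at the top of these classes was the same. CD8 T-like cells had 240, gd T/T17-like cells 188 and NK-like cells 105. Thus Nlrc5 in these lymphocytes was close in the 2 libraries, with ratios of -0.15 (-0.55 to 0.26), -0.05 (-0.56 to 0.45) and -0.02 (-0.65 to 0.64). With likely doublets kept, the CD8 T-like ratio was 0.46.

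Nlrc5 was higher in NAV in several myeloid classes. Classical monocyte-like cells had 28.4 CPM (24.4 to 32.9) in MOCK and 49.6 in NAV, a ratio of 0.80 (0.51 to 1.1), with 1.08 (0.60 to 1.56) in the Chil3 and Ms4a8a cluster and 0.60 (0.22 to 0.98) in the Vcan and Ly6c2 cluster. cDC2-like cells had 37.4 and 66.0 (0.82, 0.38 to 1.27), Kupffer-like cells 29.2 and 44.4 (0.61, 0.20 to 1.0) and macrophage-like cells 30.5 and 43.0 (0.50, 0.24 to 0.75). Neutrophil-like cells went the other way, from 52.1 (44.0 to 61.4) to 27.1 (-0.95, -1.32 to -0.58). Within the neutrophil clusters the ratios were -0.33 (-0.89 to 0.20) for Retnlg and Ngp and -0.88 (-1.47 to -0.28) for Siglecf and Il23a. The interval also held 0 in B-like (-0.04), cDC1-like (0.14) and nonclassical monocyte-like cells (0.51).

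Members with a ratio of at least 0.5 or at most -0.5 were counted against the share of all genes past the same ratio. In classical monocyte-like cells 6 of 10 members were higher in NAV (H2-K1, H2-D1, Tap1, Tapbp, Psmb9 and Nlrc5), against 4.06% of all genes measured there, and 2 were lower (Psmb8 and Psmb10), against 13.2%. The median ratio of the members was 0.54, against -0.01 for all genes. In nonclassical monocyte-like cells 5 were higher (H2-K1, B2m, Tap1, Psmb9 and Nlrc5), against 10.6%, and 2 lower (Psmb8 and Psmb10), against 11.7%, with medians of 0.46 and 0.02. The monocyte classes thus had the 2 highest medians over the members.

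In cDC2-like cells 4 of 10 members were higher (Tap1, Tap2, Psmb9 and Nlrc5), against 8.56% of genes, and 1 lower (Psmb10), against 10.5%, with medians of 0.34 and 0.03. In cDC1-like cells 3 were higher (Tap1, Tapbp and Psmb9), against 10.4%, and 2 lower (Psmb8 and Psmb10), against 10.3%, with medians of 0.33 and 0.03. Macrophage-like cells had 3 higher (Tap1, Tap2 and Tapbp), against 4.96%, and 2 lower (Psmb8 and Psmb10), against 13.3%, with medians of 0.33 and 0.00. Kupffer-like cells had 2 higher (Tap1 and Nlrc5), against 5.5%, and the same pair of proteasome subunits lower, against 14.6%, with medians of 0.36 and -0.02. Tap1 was past the ratio in all of these 4 classes and Psmb10 below it in all of them.

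The lymphocyte classes had 1 or 2 members past the upper ratio. B-like cells had 2 of 10 higher (Tap2 and Psmb9), against 4.13%, and 1 lower (Psmb10), against 11.6%, with medians of 0.30 and -0.04. CD8 T-like cells had 1 of 9 higher (Tapbp), against 9.18%, and 2 lower (Psmb8 and Psmb10), against 10.5%, with medians of 0.17 and 0.02. NK-like cells had 1 of 9 higher (Tap1), against 12%, and 2 lower (Psmb8 and Psmb10), against 9.99%, with medians of 0.14 and 0.05. The upper counts in CD8 T-like and NK-like cells were near the share of all genes. In gd T/T17-like cells 2 of 8 were higher (Tap1 and Tapbp), against 9.49%, and 1 lower (Psmb8), against 12.8%, with medians of 0.10 and 0.02. Neutrophil-like cells had 0 of 10 higher, against 38%, and 2 lower (Psmb10 and Nlrc5), against 10.7%, and their median of 0.12 lay under the 0.34 of all genes.

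One unnamed cluster of mononuclear phagocytes, led by Arg1 and Spp1, departed from the monocytes and macrophages. It held 169 MOCK and 444 NAV cells with medians of 4910 and 4443 UMIs. H2-K1 had 1543 CPM (1463 to 1628) in MOCK and 1029 in NAV there, a ratio of -0.58 (-0.68 to -0.48). B2m had 2256 (2158 to 2358) and 1533, a ratio of -0.56 (-0.64 to -0.48), and H2-D1 1667 and 1365 (-0.29, -0.38 to -0.20). All 3 were thus lower in NAV in this cluster and higher in NAV in the macrophage-like, monocyte-like and Kupffer-like classes.

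The loading genes of the Arg1 and Spp1 cluster were divided. Tap1 had 69.0 and 51.8 CPM (-0.41, -0.88 to 0.07), Tapbp 136 and 177 (0.38, 0.08 to 0.69), Psmb8 138 and 69.6 (-0.99, -1.35 to -0.63), Psmb10 45.3 and 26.7 (-0.76, -1.38 to -0.14), and Psmb9 and Nlrc5 had intervals that held 0. Other heavy chains were lower as well, H2-Q4 at -1.43, H2-Q6 at -1.97, H2-Q7 at -1.14, H2-T22 at -0.80 and H2-M3 at -0.67, while H2-T23 had 0.02. Hspa5, the main chaperone of the endoplasmic reticulum, had 3300 and 1371 CPM (-1.27, -1.34 to -1.19), and the peptide loading chaperones Pdia3 and Calr had -0.77 and -0.54. Irf1 (0.00) had an interval that held 0. Spp1, a cholangiocyte marker that phagocytes also make, had 1958 and 5326 CPM, while Epcam and Krt19 were at 0 in both libraries. The platelet markers summed to 338 and 612 CPM, of which Pf4 was 327 and 476, with Gp9 and Gp1bb at 0 in both. Their part in the result was not tested.

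The ratios over all analysed cells were also computed with either the cell makeup or the levels within clusters held at their MOCK values. Taking the MOCK levels of each cluster with the NAV cell makeup gave ratios of 0.11 for H2-K1, 0.00 for H2-D1, -0.06 for B2m, 0.18 for Tap1, 0.08 for Psmb8, -0.15 for Psmb10 and 0.31 for Nlrc5. Taking the NAV levels with the MOCK makeup gave 0.30, 0.31, 0.20, 0.77, -0.67, -1.36 and 0.37 for the same genes. Nlrc5, with an all-cell ratio of 0.56, had the largest ratio from makeup alone among the 10 members. For Psmb8 and B2m the makeup and the levels had opposite signs.

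**Figure D4:**
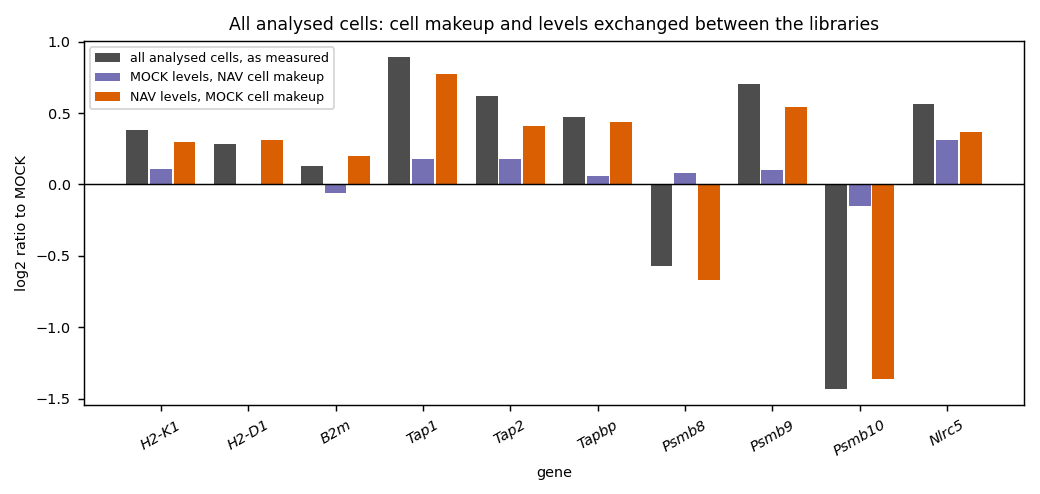
Log2 NAV/MOCK ratio of each member over all analysed cells, beside the ratio when only the cell makeup differs and when only the levels within clusters differ. For Tap1 the values are 0.89, 0.18 and 0.77, for Psmb10 -1.43, -0.15 and -1.36, and for Nlrc5 0.56, 0.31 and 0.37.

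Shares of cells with a UMI were compared after thinning every cell to 1000 UMIs, which left out shallower cells (398 MOCK and 925 NAV neutrophil-like cells). H2-K1 was found in 66.9% (64.2 to 69.6) of MOCK and 79.4% (76.7 to 81.8) of NAV classical monocyte-like cells, and in 97.5% and 98.8% without thinning. In neutrophil-like cells, H2-K1 was found in 54.1% and 67.1%, and in 64.2% and 72.7% without thinning. Psmb10 was found in 13.5% (11.4 to 15.8) and 4.28% (2.16 to 7.53) of Kupffer-like cells, and Nlrc5 in 30.7% (21.9 to 40.7) and 23.4% (17.6 to 30.1) of CD8 T-like cells. For comparison, the hepatocyte transcript Alb, which leukocytes lack, was found in at most 1.11% of the thinned cells of any class and library, in Kupffer-like cells of MOCK. The Alb share lies below each of these shares, but it cannot bound free RNA of the members, which the leukocytes themselves make.

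Genes around the pathway were given from lists of related genes. Of 3 constitutive catalytic subunits measured in macrophage-like cells, 1 was past -0.5 (Psmb5, -1.31), and of 7 activator and assembly genes none was past 0.5 or -0.5, against 4.96% of all genes higher and 13.3% lower there. The proteasome activator subunit Psme2 had 117 and 223 CPM in cDC1-like cells (0.92, 0.54 to 1.32) and 0.54 in cDC2-like cells, and its partner Psme1 had ratios of -0.56 in NK-like cells and -0.31 to 0.10 in the others. Of 10 other heavy chains measured in macrophage-like cells, 1 was past 0.5 (H2-T23, the Qa-1 molecule read by NK cells, 126 and 212 CPM, 0.75, 0.64 to 0.87) and 2 past -0.5, the latter near the 13.3% of all genes. H2-T23 was also higher in classical monocyte-like (0.72), Kupffer-like (0.62) and cDC2-like cells (0.61) and lower in neutrophil-like cells (-0.20). H2-Q6 and H2-Q7 had 1.20 and 0.66 in nonclassical monocyte-like cells, although reads of these near-identical genes can be split between them.

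Irf1, an interferon-induced activator of class I and proteasome genes, differed by class. It had 30.1 and 85.8 CPM in cDC1-like cells (1.51, 0.79 to 2.31), 0.92 in cDC2-like and 0.77 in nonclassical monocyte-like cells, but 0.08 (-0.13 to 0.29) in macrophage-like cells and -0.03 in neutrophil-like cells. In macrophage-like cells Tap1 was thus higher in NAV while the 2 libraries could not be separated for Irf1.

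Rela, the NF-kappa B subunit, was lower in NAV in all 11 classes (-1.76 to -0.94), and its 3′ end is 53.6% GC, the value of Psmb8. Pirb, an inhibitory receptor that binds class I, was lower in all 7 classes where it was measured (-2.27 to -0.93) with a 3′ end of 42.0% GC. Sec61a1 of the translocation channel had -1.47 in cDC1-like cells and Fcgrt, a class I-like receptor for antibodies, -2.03 in cDC2-like cells, with 56.0% and 54.2% GC. Among the interferon receptors and kinases, Jak2 in NK-like cells (-0.63) was the only one past 0.5 or -0.5 in any of the 11 classes. In neutrophil-like cells 6 of 12 trimming and loading genes were past 0.5, with Erap1, the aminopeptidase that trims class I peptides, at 1.24 and Canx at 1.08, beside the 38% of all genes there.

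The members did not share one profile over the classes. Over 22 points (11 classes in 2 libraries, which share libraries and differ in depth), the Pearson correlation of log2 CPM was 0.90 for Tap1 and Psmb9, 0.82 for H2-K1 and Nlrc5, 0.74 for H2-D1 and B2m, 0.70 for Tap1 and Tap2, and -0.39 for Tapbp and Psmb10. With the mean of the other members, Psmb9 had 0.72, H2-K1 0.69 and Tap1 0.67, against 0.12 for Psmb10 and -0.07 for Tapbp. Outside the lists the genes most like that mean were Bex3 (0.91), Nono (0.89), Hnrnpa3 (0.89), Pabpc1 (0.88), Mthfd2 (0.88), Cbarp (0.87), Eef1b2 (0.87) and Hnrnpa2b1 (0.87). Within the lists Psme2 had 0.89, Psme1 0.82 and Irf1 -0.10.

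Classes under 100 cells in a library are given as values and were left out of the ranks above. Mature DC-like cells (39 MOCK and 84 NAV cells) had 129 and 290 CPM of Psmb9 (1.17, 0.49 to 1.91), 217 and 389 of Nlrc5 (0.85, 0.31 to 1.41) and 720 and 430 of Psmb8 (-0.74, -1.1 to -0.39). CD4 T-like cells (97 and 156) had 2185 and 3262 of B2m (0.58, 0.42 to 0.74) and 210 and 223 of Nlrc5 (0.08, -0.48 to 0.67). pDC-like cells (45 and 151) had 391 and 187 of Psmb8 (-1.06, -1.53 to -0.58) and 3049 and 3168 of H2-K1 (0.05, -0.09 to 0.20). Psmb8 was thus lower in NAV in mature DC-like and pDC-like cells as in the larger classes. H2-K1 in mature DC-like cells, at 4825 CPM in MOCK and 5862 in NAV, had intervals that overlapped those of NK-like cells. High H2-K1 was thus not confined to lymphocytes. CD4 T-like cells had 4862 and 5680 of H2-K1. Mature DC-like cells had 3871 and 4744 CPM of B2m, 556 and 539 of Tapbp and 293 (217 to 386) and 407 (342 to 481) of Tap1. These values and their Psmb8 and Psmb9 lay above every larger class in both libraries, as did their Nlrc5 in NAV. The interval overlapped that of the highest larger class for Tap1 in both libraries and for Psmb9 in MOCK.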

How the data were processed

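Single-cell RNA counts of CD45+ cells from the MOCK and NAV groups (1 BD Rhapsody library each) were read as deposited, as unnormalized UMI counts (whole numbers) of each gene in each barcode. Per the submitters' processing notes the authors used fastp, STARsolo 2.7.10a, Cell Ranger and mm10, with no role or order given. The members and lists were chosen with earlier results of these data known. All members are named, and list genes where the ratio passed 0.5 with an interval without 0, besides a few genes always given, 1 of which is not reported here.

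Barcodes were kept from 500 UMIs and 200 genes upward if the mitochondrial share was under 20% (93 MOCK and 24 NAV removed). Scrublet's automatic threshold marked 0.00929% and 0% and had not worked, so scores above 0.25 (176 and 174 cells) and clusters with a median above 0.10 (376 and 354) were removed. Cells of both libraries were clustered together with scanpy 1.11.5 (genes in at least 3 cells, 2000 variable genes without members and list genes, 30 components, 15 neighbours, Leiden 1.0, T cells 2.0) and named from 25 marker lists (at least 3 markers). Naming thresholds and the GAAGTGAAA letters were set after seeing cells and promoters.

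UMIs were summed per class, with exact Poisson intervals for levels and intervals conditional on the summed counts for ratios (scipy 1.17.1), and checked on simulated data. No test between groups was possible. GC content came from GENCODE vM21 (31107 of 31253 genes), promoters from RefSeq. Alternatives covered filters, doublets, clustering, scaling, weighting, GC and library-wide shifts.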

Additional observations from a re-analysis of the deposited data

Results flagged for a closer look

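Some members differed in opposite directions between cell groups of the same 2 libraries, and with 1 library per group the difference between the groups was not tested. The log2 NAV/MOCK ratio of H2-K1 was 0.58 in classical monocyte-like cells and -0.58 in the unnamed cluster led by Arg1 and Spp1. That of B2m was 0.55 in nonclassical monocyte-like cells and -0.56 in the same cluster. That of Nlrc5 was 0.82 in cDC2-like cells and -0.95 in neutrophil-like cells, where all genes had a median of 0.34.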

How the results depend on the processing

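No paired analysis was possible because each group is 1 library, and for the same reason no library could be left out. The direction of Tapbp in CD8 T-like cells changed to -0.14 at Leiden resolution 2.0 and -0.03 with the libraries clustered separately, and that of Psmb10 in neutrophil-like cells to 0.25 with separate clustering. After subtracting each gene's median over the other large classes, Psmb10 had 0.57 in CD8 T-like, 0.36 in NK-like, 0.25 in cDC1-like, 0.30 in classical monocyte-like, 0.13 in macrophage-like and 0.85 in neutrophil-like cells, Tap1 -0.13 in Kupffer-like and -0.28 in NK-like cells, and Nlrc5 -0.04 in nonclassical monocyte-like cells. H2-K1 also turned below 0 in 7 classes (-0.27 to -0.04), H2-D1 in 5 (-0.19 to -0.02) and B2m in 4 (-0.11 to -0.08), from ratios of at most 0.32. The median over the members then was -0.06 in Kupffer-like, 0.10 in cDC2-like, 0.25 in classical monocyte-like, -0.09 in macrophage-like and 0.05 in nonclassical monocyte-like cells. In classical monocyte-like cells it was 0.35 with separate clustering and 0.31 with the members allowed in clustering, and in neutrophil-like cells -0.22 with median-of-ratios scaling and -0.21 against GC deciles. The alternatives' construction removes what classes or genes share, and the cause of the other differences was not tested. A class total without mitochondrial, ribosomal and haemoglobin genes left all 106 ratios within their intervals. With a log2 ratio of 1.0 in place of 0.5, the members counted as higher were 1 each in cDC1-like (3 at 0.5) and nonclassical monocyte-like cells (5) and 0 in the other 9 classes, against 6 in classical monocyte-like, 4 in cDC2-like, 3 in macrophage-like, 2 each in B-like, Kupffer-like and gd T/T17-like and 1 each in CD8 T-like and NK-like cells at 0.5. Those counted as lower were 0 in CD8 T-like (2 at 0.5), neutrophil-like (2) and gd T/T17-like cells (1), and 1 each, against 2, in NK-like, cDC1-like, both monocyte-like and macrophage-like classes. A minimum of 20 UMIs gave 2 higher in CD8 T-like and 2 lower in gd T/T17-like cells, against 1 each.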
